A study of Danio rerio with 11 samples.

Results

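Skin ionocytes of the zebrafish embryo were examined through 8 genes with known roles in these cells: the regulators foxi3a, foxi3b and gcm2, the transporters and channels trpv6, slc12a10.2 and clcn2c, and the carbonic anhydrases ca2 and ca15a. All 8 were found by symbol among 30243 gene identifiers in the files. The study compared whole embryos labelled as aldh3a1 knockouts (aldh3a1_KO, 6 libraries) with wild-type embryos (WT, 5 libraries), each at 48 hours after fertilisation and, per the labels, in the TG(fli1:EGFP) line, whose vessels carry a green reporter. aldh3a1 encodes an enzyme that oxidises reactive aldehydes; the allele, the number of embryos per library and whether replicates came from separate clutches are not given in the sources used here, so the p-values below cover the spread among these 11 libraries alone, which may be technical. Embryos stood in E3 medium with or without PTU, which blocks pigment formation, and the labels do not say which samples received it.

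Before the gills work, a zebrafish embryo exchanges ions with fresh water through ionocytes scattered in the skin of the yolk and trunk. They arise from epidermal precursors under Foxi3 forkhead factors, with Delta-Notch signalling setting which precursors become ionocytes and which become keratinocytes. Several types are known: proton-secreting (HR) cells, which use carbonic anhydrases and a proton pump and also take up sodium, calcium-absorbing (NaR) cells, and sodium- and chloride-absorbing (NCC) cells.

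Library totals were 9217936 to 17165804 estimated counts in aldh3a1_KO and 18084798 to 19972027 in WT, and mitochondrially encoded transcripts took 5.01 to 25.9% of counts in aldh3a1_KO and 4.63 to 5.62% in WT. The transcript of aldh3a1 itself was still detected, at 3.77 ± 1.20 CPM (counts scaled to a common library size) in aldh3a1_KO and 5.79 ± 1.30 CPM in WT (SD, n = 6 and 5, edgeR adjusted p = 0.0621); on log2(TPM + 1) limma's adjusted p was 0.0300. Each of the 8 ionocyte genes had counts in every WT library, and in aldh3a1_KO only trpv6 was at 0, in replicates 1 and 3. In a whole-embryo library, fewer cells of a type and less RNA per cell cannot be told apart.

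Of the 6 ionocyte genes that could be tested, 4 were lower in aldh3a1_KO embryos and 1 was higher. The regulators foxi3a and gcm2 and the carbonic anhydrases ca2 and ca15a fell, the sodium-chloride cotransporter gene slc12a10.2 rose, and the chloride channel gene clcn2c did not pass the test. The genes foxi3b and trpv6 had too few counts to pass the filter. By edgeR's quasi-likelihood test at a Benjamini-Hochberg adjusted p under 0.05, 55.3% of 22182 tested genes changed, 29.3% falling and 26% rising, so 4 falling and 1 rising among 6 tested genes stand against a background in which change was common. Of the 4 that fell, foxi3a and gcm2 passed the filter only through their WT libraries, so their count is a description. Of all changed genes, 47.0% rose with TMM scaling, against 35.5% on log2(TPM + 1). The count of falling members was 2 without aldh3a1_KO 2 or without WT 3, because ca15a then missed the threshold and foxi3a did not pass the filter, and it was 5 without WT 5 or without aldh3a1_KO 1, 5 and 6, where foxi3b passed the filter through WT and fell.

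The 3 regulators were scarce transcripts, and those that could be tested were lower in aldh3a1_KO. The forkhead gene foxi3a (Entrez gene 387257), which drives ionocyte fate, lay at 0.0651, 0.174 and 0.527 CPM (lowest, median and highest of 6) in aldh3a1_KO, against 1.30, 1.02, 1.33, 0.908 and 0.573 CPM in WT. The groups did not overlap, although aldh3a1_KO 1 came close to WT 5. The log2 fold change was -2.07 ± 0.50 (SE, n = 6 and 5, edgeR adjusted p = 0.00317). These levels rest on 17 estimated counts in all of aldh3a1_KO and 104 in WT, and foxi3a passed the filter on low counts only through its WT libraries. With aldh3a1_KO 1, 5 and 6 left out, whose mitochondrial shares of 25.9, 19.8 and 20.9% were above those of all other libraries, its log2 fold change was -3.07 (edgeR adjusted p = 0.00127).

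Its paralogue foxi3b (Entrez gene 387258), which acts with foxi3a in the same precursors, lay at 0.0651, 0.170 and 1.02 CPM (lowest, median and highest of 6) in aldh3a1_KO, against 0.850, 1.16, 1.33, 0.454 and 0.334 CPM in WT. The groups overlapped through 1 library: aldh3a1_KO 6 stood above WT 1, WT 4 and WT 5, whereas the other 5 aldh3a1_KO libraries stood below all WT libraries. There were 21 estimated counts over aldh3a1_KO and 84 over WT, a ratio of 0.338 per effective library size with a 95% interval (Clopper-Pearson) of 0.199 to 0.551 that covers counting error only. The estimated counts of foxi3b were not whole numbers in 8 of 11 libraries (tolerance 0.01), so part of its reads was shared with other transcripts. The interval does not cover that uncertainty. Tested without a filter, foxi3b had a log2 fold change of -1.42 ± 0.64 (SE, edgeR adjusted p = 0.0819), and without WT 5, its lowest WT library, -1.69 (edgeR adjusted p = 0.0395). Without aldh3a1_KO 1, 5 and 6 it was -2.51 (edgeR adjusted p = 0.0106), but this leaves out aldh3a1_KO 6, the 1 library that overlaps WT. In both cases foxi3b passed the filter through WT, where it is high, so these values are a description. The balance of the pair could not be told apart between groups: foxi3a made up 45.6% ± 23.8 of their summed TPM (a level per transcript length) in aldh3a1_KO and 51.5% ± 9.17 in WT (SD, n = 6 and 5, exact permutation p = 0.636, two-sided).

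The third regulator, gcm2 (Entrez gene 449615), is required for the proton-secreting cells and is also active in the pharyngeal arches. It lay at 0.0592, 0.271 and 0.455 CPM (lowest, median and highest of 6) in aldh3a1_KO, against 1.80, 1.26, 2.27, 1.66 and 0.955 CPM in WT. Every aldh3a1_KO library was below every WT library; aldh3a1_KO 4 and WT 5 were the closest. gcm2 fell by 2.62 ± 0.45 on the log2 scale (SE, n = 6 and 5, edgeR adjusted p = 0.000282), on 19 estimated counts in aldh3a1_KO and 161 in WT, and it too passed the filter only through WT. Non-overlapping groups were found for 37.8% of all tested genes.

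**Figure D1:**
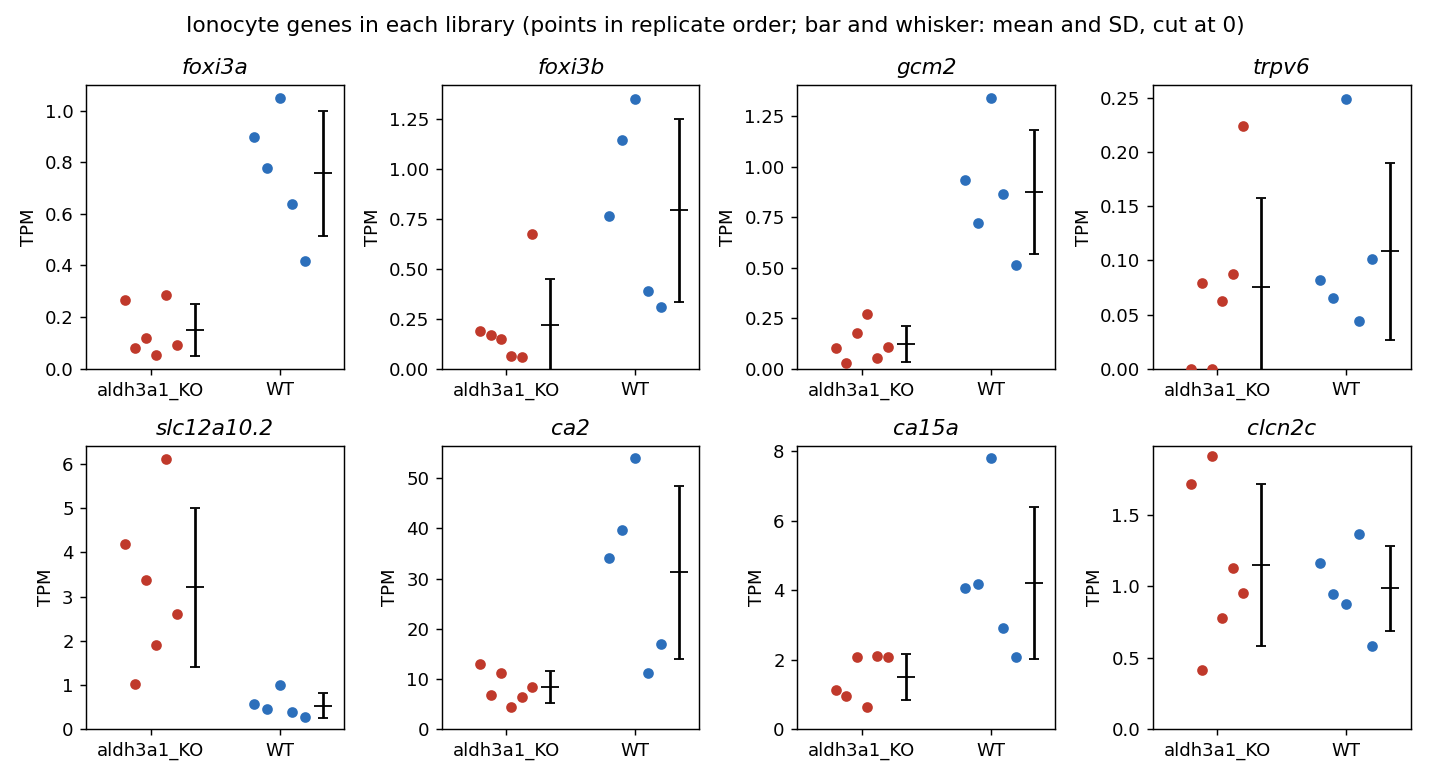
TPM of each of the 8 ionocyte genes in every library, with aldh3a1_KO (red, 6 libraries) left of WT (blue, 5 libraries) and the mean with SD beside the points. foxi3a, gcm2 and slc12a10.2 show groups that do not overlap, slc12a10.2 with aldh3a1_KO on top; in foxi3b 1 aldh3a1_KO library stands at 0.673 TPM while the other 5 stay under 0.189 TPM.

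Among transport genes, slc12a10.2 and clcn2c, both known from chloride-absorbing cells, were not lower. The cotransporter gene slc12a10.2 (Entrez gene 562834), which takes up sodium with chloride at the apical side of NCC cells, lay at 3.44, 10.9 and 22.9 CPM (lowest, median and highest of 6) in aldh3a1_KO, against 1.85, 1.35, 2.86, 1.26 and 0.860 CPM in WT. All aldh3a1_KO libraries were above all WT libraries, with aldh3a1_KO 2 nearest to WT. The log2 fold change was 2.87 ± 0.49 (SE, n = 6 and 5, edgeR adjusted p = 0.000256), from 801 estimated counts in aldh3a1_KO and 166 in WT. Its highest values, 18.9, 22.9 and 11.6 CPM, were in aldh3a1_KO 1, 5 and 6, which also had the highest mitochondrial shares, and without these libraries the log2 fold change was 2.02 (edgeR adjusted p = 0.00292). The estimated counts of slc12a10.2 were not whole numbers in any of the 11 libraries (tolerance 0.01), so part of its reads was shared with other transcripts, and the split among its neighbouring copies is uncertain.

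The chloride channel gene clcn2c (Entrez gene 563453), which lets chloride leave NCC cells on the blood side, lay at 1.07, 3.24 and 5.89 CPM (lowest, median and highest of 6) in aldh3a1_KO, against 2.90, 2.13, 1.92, 3.33 and 1.39 CPM in WT. The ranges overlapped widely, with aldh3a1_KO libraries both above and below all WT libraries. Its log2 fold change of 0.47 ± 0.40 (SE, n = 6 and 5) had an edgeR adjusted p of 0.336.

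The calcium channel gene trpv6 (Entrez gene 100000322), the entry path for calcium in NaR cells, was close to the limit of detection. It had 15 estimated counts over all aldh3a1_KO libraries, 8 of them in replicate 6, and 25 over all WT libraries, 11 of them in replicate 3. These counts were not whole numbers in 6 of 11 libraries (tolerance 0.01), so part of its reads was shared with other transcripts. The ratio of 0.812 had a 95% interval (Clopper-Pearson) of 0.398 to 1.6, which covers counting error only, and no difference was detectable at this depth. Without a filter its log2 fold change was -0.18 ± 0.84 (SE, edgeR adjusted p = 0.874).

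Both carbonic anhydrases, which hydrate carbon dioxide to supply protons in HR cells, were lower in aldh3a1_KO. The cytosolic enzyme gene ca2 (Entrez gene 387526) lay at 16.9, 37.8 and 77.2 CPM (lowest, median and highest of 6) in aldh3a1_KO, against 146, 153, 203, 47.3 and 69.0 CPM in WT. WT 4 and WT 5 were far below the other WT libraries, and aldh3a1_KO 1 was above both of them, so the groups overlapped. With 2983 estimated counts in aldh3a1_KO and 12592 in WT it was the most deeply measured of the 8, and its log2 fold change was -1.58 ± 0.40 (SE, n = 6 and 5, edgeR adjusted p = 0.00424). The estimated counts of ca2 were not whole numbers in 4 of 11 libraries (tolerance 0.01), so part of its reads was shared with other transcripts.

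The membrane-bound enzyme gene ca15a (Entrez gene 553469), which acts at the outer face of HR cells, lay at 0.781, 2.30 and 3.91 CPM (lowest, median and highest of 6) in aldh3a1_KO, against 5.05, 4.74, 8.58, 3.73 and 2.63 CPM in WT. aldh3a1_KO 3, 5 and 6 were above WT 5, so these groups overlapped as well. Estimated counts of ca15a were not whole numbers in 5 of 11 libraries (tolerance 0.01), so it too shared reads with other transcripts. The log2 fold change of -1.14 ± 0.40 (SE, n = 6 and 5) had an edgeR adjusted p of 0.0250, which was 0.0738, 0.0735 and 0.0868 without aldh3a1_KO 1, aldh3a1_KO 2 or WT 3.

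Levels per length ordered the 8 genes differently in the 2 groups. In aldh3a1_KO, ca2 came first at 8.42 ± 3.18 TPM, followed by slc12a10.2 at 3.21 ± 1.80 TPM, ca15a at 1.51 ± 0.660 TPM and clcn2c at 1.15 ± 0.567 TPM (SD, n = 6), and the remaining 4 averaged at most 0.218 TPM. In WT, ca2 led at 31.2 ± 17.3 TPM, ca15a followed at 4.20 ± 2.19 TPM and clcn2c at 0.986 ± 0.295 TPM, while slc12a10.2 stood seventh at 0.538 ± 0.279 TPM (SD, n = 5). Neighbours in the aldh3a1_KO order had overlapping ranges throughout. In WT, ca2 stood clear of ca15a, ca15a clear of clcn2c, and slc12a10.2 clear of trpv6, whereas clcn2c, gcm2, foxi3b, foxi3a and slc12a10.2 overlapped with their neighbours.

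Markers of keratinocytes, the cells that surround ionocytes in the skin, were lower as well. Of 18 keratinocyte markers, 16 fell, 0 rose and 2 did not pass by edgeR, where 29.3% of all genes fell and 26% rose. Among those that fell, cldni had a median of 0 CPM in aldh3a1_KO and passed the filter through WT, so its call is a description. At an unadjusted p under 0.05, by DESeq2 or by limma on log2(TPM + 1), 0 markers rose. Their median log2 fold change was -1.90, against -0.12 over all tested genes. Their summed level was 2775 to 6921 CPM in aldh3a1_KO and 12107 to 19431 CPM in WT. The keratin gene krt4 made up 68.0 to 73.9% of that sum in aldh3a1_KO and 67.9 to 75.3% in WT. When libraries were scaled to the sum of these markers in place of TMM, the median of all tested genes moved to 1.89, and 81.4% of genes changed, 80.3% rising and 1.05% falling. On that scale 0 of the 6 tested ionocyte genes fell by edgeR, also at an unadjusted p under 0.05, and 2 rose. foxi3a was at -0.26 ± 0.53 (edgeR adjusted p = 0.656), gcm2 at -0.66 ± 0.55 (adjusted p = 0.266), ca2 at 0.33 ± 0.38 (adjusted p = 0.427) and ca15a at 0.79 ± 0.39 (adjusted p = 0.0651), all as log2 fold changes with SE from edgeR. Per keratinocyte transcript, slc12a10.2 rose by 4.70 ± 0.43 (edgeR adjusted p = 8.5e-09) and clcn2c by 2.31 ± 0.42 (edgeR adjusted p = 3.6e-05). The part of keratinocyte content in the ionocyte values was not tested.

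**Figure D2:**
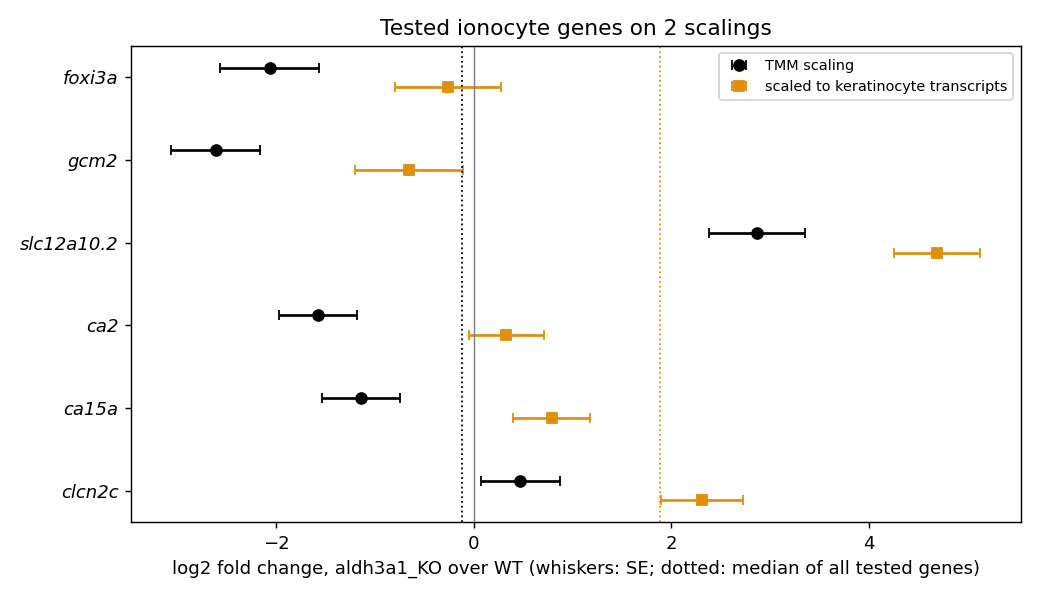
Log2 fold change of aldh3a1_KO over WT with SE for the 6 tested ionocyte genes, with TMM scaling (black circles) and with libraries scaled to keratinocyte transcripts (orange squares); dotted lines mark the median of all tested genes on each scale, -0.12 and 1.89. foxi3a, gcm2, ca2 and ca15a lie below 0 with TMM and between -0.66 and 0.79 relative to keratinocyte transcripts, while slc12a10.2 stands at 2.87 and 4.70.

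Within groups, many of the ionocyte genes were high or low in the same libraries. WT 3 held the highest CPM of its group for 7 of the 8 genes, all but clcn2c, and WT 5 the lowest for 6. Among aldh3a1_KO libraries, replicate 4 was lowest for foxi3a, foxi3b, ca2 and ca15a, and replicate 2 for gcm2, slc12a10.2 and clcn2c. Other libraries went against this: aldh3a1_KO 4 was highest for gcm2, and WT 4 was lowest for ca2 and trpv6 but highest for clcn2c. After each group's mean was removed from log2(CPM + 0.5), the 15 pairs among the 6 tested genes had Pearson coefficients of 0.20 to 0.86 with a median of 0.58 over 11 libraries that share 1 scaling, highest for foxi3a with slc12a10.2. The sparse trpv6 varied by partner, at -0.29 with clcn2c, 0.0041 with foxi3a, 0.11 with gcm2, 0.15 with slc12a10.2 and 0.18 with ca2. With ca15a it stood at 0.53 and with foxi3b, also sparse, at 0.67. Within groups, all 8 genes also had positive coefficients with the summed keratinocyte markers, from 0.22 for gcm2 to 0.79 for slc12a10.2, and 7 had positive ones with the mitochondrial share, gcm2 standing at -0.07. Summed keratinocyte markers were 6921, 5009 and 6261 CPM in aldh3a1_KO 1, 5 and 6, and 2775, 2831 and 2962 CPM in aldh3a1_KO 2, 3 and 4; their part in this co-variation was not tested. On the same measure, the genes most like the 6 on average among 14566 named genes of at least 2 CPM were fgf1b (mean coefficient 0.75), casp3b (0.75), tjp3 (0.74), anpepa (0.74) and elovl1a (0.74).

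Carbonic anhydrases as a family changed their make-up. ca2 took 3.47% ± 1.41 of the summed TPM of 18 carbonic anhydrase genes in aldh3a1_KO and 19.0% ± 8.21 in WT, with ranges of 1.51 to 5.14% and 8.35 to 25.7% that did not overlap (SD, n = 6 and 5, exact permutation p = 0.00433, two-sided, the smallest that 462 splits can give; adjusted over 3 shares p = 0.00649). ca15a took 0.578% ± 0.181 in aldh3a1_KO and 2.55% ± 0.839 in WT, also without overlap (exact permutation p = 0.00433, adjusted p = 0.00649). These shares are ratios within a library and do not depend on its scaling. They do depend on the other carbonic anhydrases in the sum, of which ca10b and ca9 took larger shares in aldh3a1_KO than in WT. In TPM itself, the groups overlapped for ca2 and for ca15a, so the separation of the shares is not a separation of their levels.

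The rest of the family moved in both directions. Of 16 other carbonic anhydrase genes, 13 were tested, 6 rose, 2 fell and 5 did not pass (median log2 fold change 0.02), against 26% of all genes that rose and 29.3% that fell. Relative to keratinocyte transcripts 10 rose and 1 fell, where 80.3% of all genes rose and 1.05% fell. The largest part in aldh3a1_KO was ca10b, a relative that lacks enzyme activity in mammals, at 104 TPM in aldh3a1_KO and 10.34 TPM in WT on average (log2 fold change 3.59 ± 0.41, edgeR adjusted p = 2.2e-05). ca9, a hypoxia-responsive cell-surface enzyme, averaged 69.0 TPM in aldh3a1_KO and 7.12 TPM in WT (3.53 ± 0.47, edgeR adjusted p = 5.2e-05). It stood at 73.1, 147 and 81.1 TPM in aldh3a1_KO 1, 5 and 6, which had the highest mitochondrial shares, and at 27.9, 57.0 and 27.9 TPM in aldh3a1_KO 2, 3 and 4. The gene ca4c, which encodes a membrane-anchored enzyme, rose by 2.63 ± 0.34. In the other direction ca6, a secreted enzyme, averaged 4.36 TPM in aldh3a1_KO and 33.4 TPM in WT (-2.70 ± 0.23, edgeR adjusted p = 6.6e-06), and ca14 fell by 1.95 ± 0.50, having passed the filter through WT with 1 of 6 aldh3a1_KO libraries at its level. The summed family level was 261 ± 92.8 TPM in aldh3a1_KO and 158 ± 29.8 TPM in WT (SD, n = 6 and 5), with overlapping ranges of 151 to 424 TPM and 136 to 210 TPM.

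**Figure D3:**
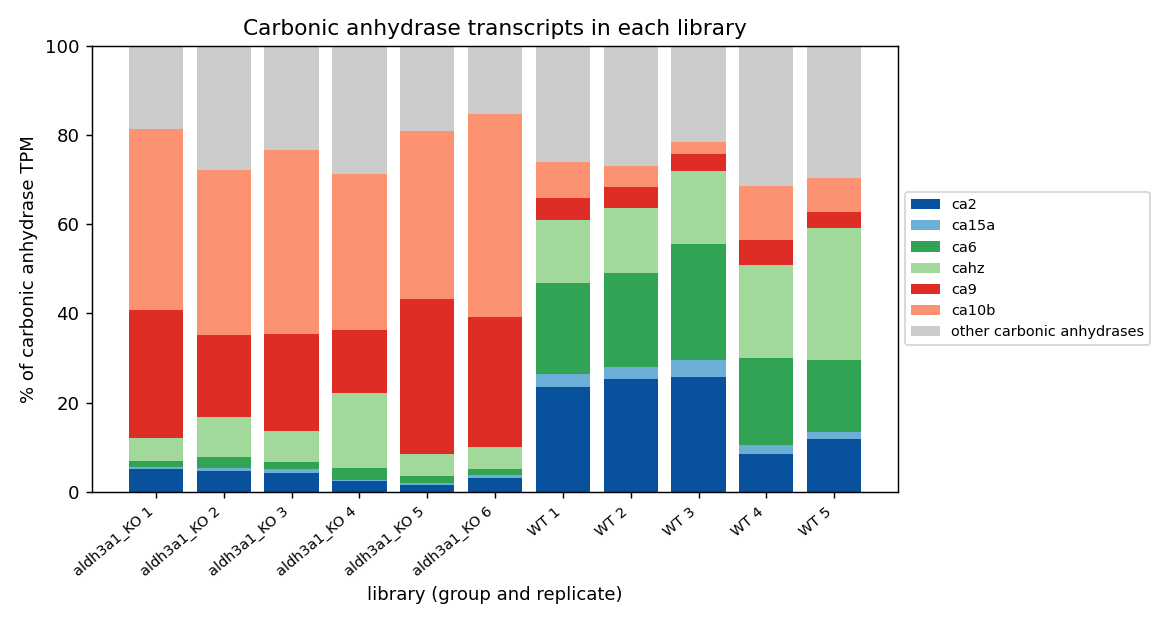
Share of the summed TPM of 18 carbonic anhydrase genes taken by 6 of them in each library, aldh3a1_KO on the left and WT on the right. The ionocyte genes ca2 and ca15a (blue) shrink to 3.47 and 0.578% on average in aldh3a1_KO, against 19.0 and 2.55% in WT, while ca10b and ca9 (red) fill 39.6 and 24.5% in aldh3a1_KO, against 6.998 and 4.58% in WT.

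Further genes of each ionocyte type were read from lists chosen with earlier results of these data known. Their counts are to be read against all tested genes, of which 29.3% fell and 26% rose with TMM, and 80.3% rose and 1.05% fell relative to keratinocyte transcripts. Of 8 HR cell genes, 3 fell, 1 rose and 4 did not pass. The anion exchanger gene slc4a1b, which exports bicarbonate from HR cells, rose by 2.35 ± 0.34 (14.7 ± 5.51 CPM in aldh3a1_KO and 2.87 ± 0.951 CPM in WT). The cell adhesion gene ceacam1 fell by 3.04 ± 0.49, the proton pump gene atp6v1ab by 0.58 ± 0.16 and the sodium pump gene atp1a1a.5 by 1.85 ± 0.56. The genes ceacam1 and atp1a1a.5 passed the filter through WT, with 3 of 6 aldh3a1_KO libraries at its level. Of the 4 that did not pass, rhcga stood at 0.47 ± 0.50 (edgeR adjusted p = 0.437) and slc9a3.2 at -0.10 ± 0.51 (edgeR adjusted p = 0.883). Their estimated counts were 45 and 62 over aldh3a1_KO and 46 and 90 over WT. The genes atp6v1aa and atp6v1ba stood at -0.21 ± 0.23 and -0.19 ± 0.24 (edgeR adjusted p = 0.458 and 0.534). Relative to keratinocyte transcripts 6 of the 8 rose, near the 80.3% of all genes, and 1, ceacam1, fell.

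Of 5 NaR cell genes, 1 rose, 1 fell and 3 did not pass, whereas all 5 rose relative to keratinocyte transcripts, where 80.3% of all genes did. The calcium pump gene atp2b1a, which moves calcium out of NaR cells toward the blood and is expressed in many other cells, rose by 2.21 ± 0.32, at 331 ± 183 CPM in aldh3a1_KO and 71.4 ± 8.77 CPM in WT. The sodium pump gene atp1a1a.1 fell by 1.19 ± 0.19. Of 3 NCC cell genes beside slc12a10.2 and clcn2c, atp1a1a.2 fell by 2.85 ± 0.36 (3.13 ± 1.28 CPM in aldh3a1_KO and 22.5 ± 10.32 CPM in WT). The chloride channel subunit gene bsnd had a log2 fold change of -0.98 ± 0.38 (edgeR adjusted p = 0.0420). It missed the threshold under 14 of 21 alternatives and, short of the threshold, changed sign under another. It also passed the filter through WT, with 2 of 6 aldh3a1_KO libraries at its level, so its call is a description. The bicarbonate cotransporter gene slc4a4b had a log2 fold change of -0.31 ± 0.22 (edgeR adjusted p = 0.248). Thus slc12a10.2 and atp1a1a.2, both known from NCC cells, had opposite directions with TMM and also relative to keratinocyte transcripts, where atp1a1a.2 stood at -0.88 (edgeR adjusted p = 0.0311).

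Of 11 genes of potassium-secreting and SLC26 cells only 3 passed the filter. Of these, 1 rose and 2 did not pass the test, and all 3 rose relative to keratinocyte transcripts, where 80.3% of all genes did. The potassium channel gene kcnj1b rose by 0.72 ± 0.20, a call lost on log2(TPM + 1) (0.15, limma adjusted p = 0.572) and log2(TPM + 0.1) (0.17, limma adjusted p = 0.599). Among the genes not tested, kcnj1a.5 had 13 estimated counts over aldh3a1_KO and 122 over WT. In the other direction, slc26a3.1 had 21 over aldh3a1_KO and 3 over WT. In the same order of groups, kcnj1a.2 had 15 and 47, kcnj1a.3 had 6 and 6, and kcnj1a.4 had 12 and 18. Counts were 14 and 21 for slc26a3.2, 20 and 37 for slc26a4, and 35 and 28 for slc26a6l1. Among 5 ammonia channel genes, rhcgb rose by 2.49 ± 0.54 but passed the filter only through aldh3a1_KO, rhag, an erythroid member, fell by 2.18 ± 0.44, 2 did not pass and 1 was not tested. Of 16 sodium-potassium pump subunit genes, 11 fell and 5 did not pass (median log2 fold change -0.95), against 29.3% of all genes that fell, and 10 rose and 1 fell relative to keratinocyte transcripts, where 80.3% of all genes rose. The estimated counts of atp1a1a.1, atp1a1a.3 and atp1a1a.5 were not whole in 3, 7 and 7 of 11 libraries (tolerance 0.01), so these copies are uncertain, whereas those of atp1a1a.2 and atp1a1a.4 were whole in all 11.

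Among the closest relatives of the channel, carrier and forkhead members, 3 rose, 5 fell and 1 of 9 tested genes did not pass, against 26% of all genes that rose and 29.3% that fell. Relative to keratinocyte transcripts 5 rose and 4 did not pass, where 80.3% of all genes rose. slc12a10.3, a neighbouring copy of slc12a10.2, rose by 1.49 ± 0.36. Its estimated counts were not whole in any of the 11 libraries (tolerance 0.01), so this copy is uncertain too. The other chloride channel genes clcn2a and clcn2b rose by 2.25 ± 0.43 and 1.34 ± 0.23. The gene clcn2a passed the filter through aldh3a1_KO, with 3 of 5 WT libraries at its level, so its call is a description. The forkhead gene foxi1, an otic and pharyngeal relative of foxi3a, fell by 1.75 ± 0.41, with overlapping groups.

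**Figure D4:**
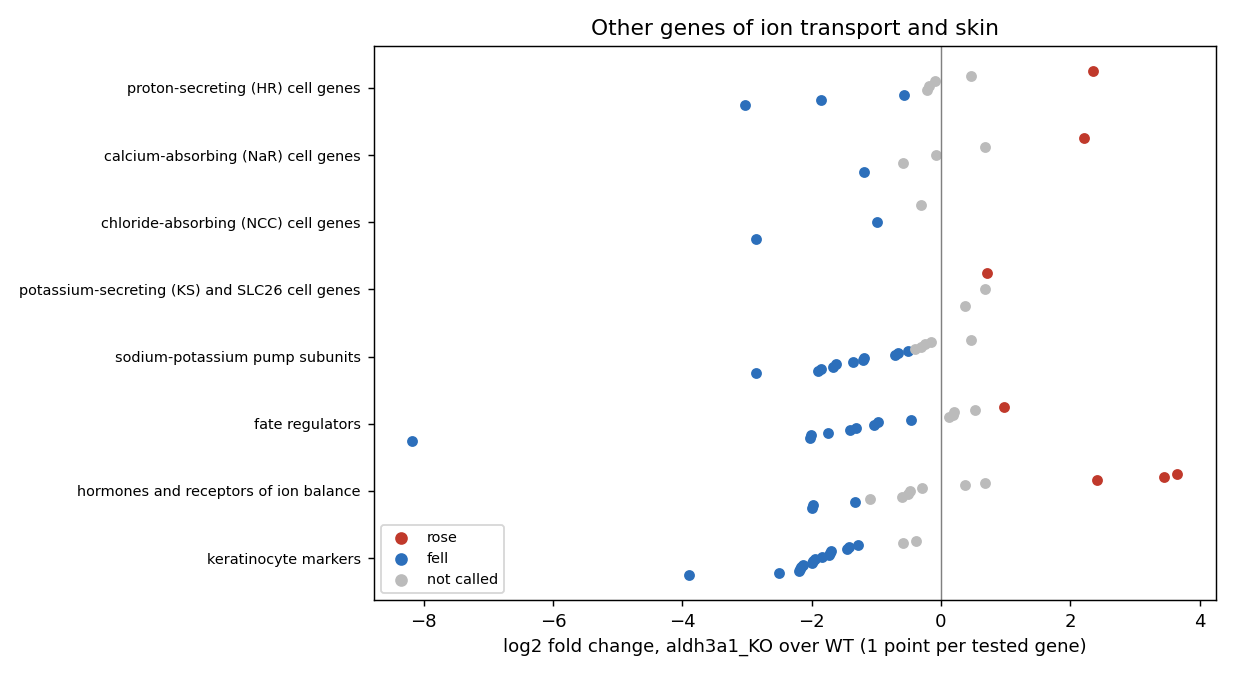
Log2 fold change of aldh3a1_KO over WT for every tested gene of 8 lists, 1 point per gene, in red where it rose, blue where it fell and grey where it did not pass an edgeR adjusted p of 0.05. Keratinocyte markers and sodium-potassium pump subunits lie almost all below 0, while the HR, NaR and hormone lists hold genes on both sides.

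Of 15 genes that set the fate of epidermal precursors, 14 were tested, 9 fell, 1 rose and 4 did not pass (median log2 fold change -1.01), against 29.3% and 26% of all genes; relative to keratinocyte transcripts 8 rose and 1 fell, where 80.3% of all genes rose. The epidermal factor gene tp63 fell by 1.41 ± 0.29 and grhl1, a grainyhead factor of the epidermis, by 2.01 ± 0.36. The Notch ligand gene dlc, known to be expressed in ionocyte precursors, had 7 estimated counts over aldh3a1_KO and 2986 over WT, a fitted log2 fold change of -8.18 ± 0.65 that is not precise at so few counts. It passed the filter only through WT, where its level was uneven: WT 4 stood at 4.44 CPM and the other WT libraries at 28.4 to 46.3 CPM. The ligand gene dld fell by 1.04 ± 0.17 and the receptor gene notch3 by 2.03 ± 0.39. The ligand gene jag2a was the member of the list that rose, by 0.97 ± 0.33, a call lost without WT 2 or WT 5 (edgeR adjusted p = 0.0567 and 0.0563), without aldh3a1_KO 1, 5 and 6 (0.227) and on log2(TPM + 1) and log2(TPM + 0.1) (limma adjusted p = 0.131 and 0.164). Notch genes act in the nervous system and many other tissues, so these levels are not specific to skin.

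Of 22 hormones and receptors that adjust ion uptake, 13 had enough counts, and 3 rose, 3 fell and 7 did not pass, near the 26% and 29.3% of all genes; relative to keratinocyte transcripts 7 rose and 6 did not pass, where 80.3% of all genes rose. The calcium-sensing receptor gene casr rose by 3.45 ± 0.60, with 68 estimated counts in aldh3a1_KO and 8 in WT. The vitamin D receptor gene vdrb rose by 2.42 ± 0.36 and stc1, a stanniocalcin gene, by 3.65 ± 0.77, with 85 estimated counts in aldh3a1_KO and 9 in WT. Both casr and stc1 passed the filter only through aldh3a1_KO, where they are high, so their calls are a description. Prolactin, a pituitary hormone that promotes ion uptake in fresh water, was lower: prl fell by 1.98 ± 0.46, at 1.98 ± 1.70 CPM in aldh3a1_KO and 7.88 ± 3.12 CPM in WT. The cortisol-inactivating enzyme gene hsd11b2 fell by 1.996 ± 0.24 and the growth hormone receptor gene ghrb by 1.33 ± 0.23. stc1, prl, jag2a, tp63, ca14 and cldni were named after their values were seen. So were the untested genes of potassium-secreting and SLC26 cells and the HR cell genes that did not pass. krt4, atp1a1a.3 and atp1a1a.4 are also named beyond the genes with the smallest adjusted p of their lists.

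The pronephros, the embryonic kidney, uses related transporters in its tubules. Of its 12 markers, 11 were tested, 4 rose, 2 fell and 5 did not pass (median log2 fold change -0.38), against 26% of all genes that rose and 29.3% that fell. Relative to keratinocyte transcripts 9 rose, where 80.3% of all genes did. The summed level of these markers was 258 to 323 CPM in aldh3a1_KO and 211 to 253 CPM in WT. The largest parts of that sum were pax2a, at 132 CPM in aldh3a1_KO and 88.6 CPM in WT on average, and trpm7, at 54.1 and 33.9 CPM. Both are among the 4 that rose, whereas cdh17 is among the 2 that fell (log2 fold change -1.51 ± 0.30). The sum therefore does not stand for each marker. The part of pronephros content in the values of the ionocyte genes was not tested.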

How the data were processed

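Whole-embryo RNA from 6 aldh3a1_KO and 5 WT samples was made into libraries by BGISEQ-500 protocols, per the labels' protocols. Per the submitters' processing notes, Trim Galore 0.6.4, kallisto (version given as 0.4.6) and danRer11 were used. The deposited estimated counts per gene, which the authors made, are expected counts and not whole numbers; the deposited TPM values are per transcript length and library, as the authors computed them. Of 30243 Entrez identifiers, 25812 matched a symbol in a RefSeq table on GRCz12tu, used for names only; 2 list symbols matched by an older name.

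Counts were rounded and tested in R 4.3.3 with edgeR 4.0.16 (filterByExpr, TMM, robust quasi-likelihood F test, two-sided, Benjamini-Hochberg adjustment over all tested genes); SEs come from the F statistic. CPM are TMM-scaled. limma 3.58.1 was run on log2(TPM + 1) and log2(TPM + 0.1), and DESeq2 1.42.0 on rounded counts. Shares were compared by exact permutation over 462 splits. Plots used Python 3.11.15 with matplotlib 3.10.9. The workflow was tested on simulated data. No 2 libraries held identical values.

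The members, gene lists and tests were chosen with earlier results of these data known. Named genes are the 8 members, aldh3a1 and up to 4 genes per list with the smallest adjusted p, plus those marked in the text. Other settings were DESeq2 size factors, upper-quartile factors, keratinocyte scaling, no filter, 1 CPM in 5 libraries, the replicate block, no mitochondrially encoded genes, and leaving out libraries. Library totals of 9217936 to 19972027 estimated counts limit precision most for genes under 1 CPM.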

Additional observations from a re-analysis of the deposited data

Results flagged for a closer look

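The level of foxi3b in aldh3a1_KO 6, 1.02 CPM, lay far from the other 5 aldh3a1_KO libraries, which held 0.0651 to 0.264 CPM. By Dixon's ratio on log2(CPM + 0.5) its gap was 0.696 of the range of its group, above the 95% critical value for 6 samples. It was the 1 such library among 16 combinations of gene and group, where chance alone gives about 1 in 20. The difference in mean log2(CPM + 0.5) of foxi3b, aldh3a1_KO minus WT, was -0.75 with this library and, with the remaining libraries rescaled, -0.92 without it. The same library held 8 of the 15 trpv6 counts in aldh3a1_KO, and its share of mitochondrially encoded transcripts was 20.9%.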

How the results depend on the processing

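Over 21 alternatives other than keratinocyte scaling, ca2, gcm2 and slc12a10.2 kept their direction and stayed past the threshold, with log2 fold changes of -1.96 to -1.34, -2.89 to -0.73 and 1.36 to 3.18; foxi3a did so in the 15 that could test it (-3.07 to -0.60), and for foxi3a, gcm2 and slc12a10.2 the value nearest 0 came from log2(TPM + 1), which compresses low genes. Since foxi3a and gcm2 passed the main filter only through WT, where they are high, their persistence over filtered settings is a description. clcn2c stayed above 0 and short of the threshold (0.08 to 0.76). Leaving out 1 library gave -1.31 to -0.86 for ca15a, 2 to 5 falling members and 1 rising member. With keratinocyte scaling, 0 members fell and 2 rose; foxi3a was at -0.26, gcm2 at -0.66, ca2 at 0.33, ca15a at 0.79 and clcn2c at 2.31. On that scale these also changed sign: aldh3a1 (1.33), tp63 (0.52), dld (1.03), notch3 (0.17), atp6v1ab (1.46), atp1a1a.5 (0.0922), atp1a1a.1 (0.89), bsnd (0.93), slc4a4b (1.65), hsd11b2 (0.0510), ghrb (0.68), foxi1 (0.36) and ca14 (0.0460), as its construction moves the median gene to 1.89. Only aldh3a1, dld, atp6v1ab, atp1a1a.1 and slc4a4b passed an edgeR adjusted p of 0.05 there. The others were short of it, so they had no call on that scale. The share of foxi3a in the foxi3 pair, lower by 5.93 percentage points in aldh3a1_KO, was 0.742 points higher without aldh3a1_KO 6; leaving out 1 library gave -13.3 to 0.742 points.

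The replicate numbers were not taken to pair the samples, since the labels give no shared clutch. Same-numbered pairs had correlations of deviations of 0.178, 0.167, 0.0224, 0.109 and 0.0250. These values alone cannot decide whether the samples are paired. The replicate block, which leaves out aldh3a1_KO 6, gave 11125 changed genes against 12269 and changed no call of a tested member (ca15a -1.28, adjusted p = 0.0203). The planned motif search was not run, since promoter sequence was not used here. Depth limits foxi3b, trpv6 and the genes of potassium-secreting cells.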
